A study of Homo sapiens with 4 samples.

Results

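7SK is a noncoding RNA of the nucleus, made by RNA polymerase III from the RN7SK gene on chromosome 6, and the human genome carries many partial copies of it, the RN7SKP pseudogenes. The features described here are those named RN7SK, RN7SKP or 7SK in GENCODE whose raw counts summed to at least 10 over 4 small RNA libraries. They were chosen by these measured counts, so that being detected is not a finding. Of 7062 small RNA features listed, 290 carried such a name and 76 reached 10 counts: 2 overlapping identifiers of RN7SK and 74 pseudogenes. Of the other 7SK features, 126 had 0 counts in all 4 libraries and 88 had 1 to 9 counts, which came to 312 counts in all. At the threshold, 8 features had a sum of 8 and 3 had 9 and stayed outside, whereas 5 had 10, 3 had 11 and 7 had 12 and were kept. The 3 features with the generic name 7SK had at most 2 counts and were not kept. RN7SKP175, named only through its RefSeq position, also stayed outside the rule, with 40 and 107 counts in the T4A libraries and 49 and 57 in the WT libraries.

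7SK RNA holds the kinase P-TEFb, made of CDK9 and cyclin T, in an inactive particle together with HEXIM proteins, and release of the kinase allows it to phosphorylate the C-terminal domain (CTD) of RNA polymerase II (Pol II) and other elongation factors. The 5′ hairpin of the RNA, which carries GATC stretches, is bound by HEXIM, the enzyme MePCE caps the 5′ end, and LARP7 binds the U-rich 3′ end. The pseudogenes are thought of as retroposed or otherwise duplicated copies that in most cases lack the promoter of the gene.

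The study used HEK293T cells, a human embryonic kidney line that some labels call HEK293, transiently transfected with 1.5 μg per well of a plasmid for the large Pol II subunit RPB1. In the 52X T4A group the heptads of the 52-repeat CTD carried alanine in place of threonine at the fourth position, and in the 52X WT group they were wild type. Both groups were then kept for 72 hours in α-amanitin at 2.5 μg/ml, a toxin against which the transfected enzyme is selected, so that no library came from untreated cells or from cells on their own Pol II alone. Each group had 2 libraries, described as biological replicates, with 50-bp single-end reads of total RNA. Library totals ran from 16180790 to 27370127 counts, T4A replicate 2 was the deepest, and the 5 most abundant features held 39.38% of all counts.

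RN7SK lies at chr6:52995620-52995950 on the plus strand (hg38) and is 331 bases long. A second identifier, 328 bases from 52995621 to 52995948, held equal counts in every library and is counted once in all sums. Its sequence is shown in 2 stretches, because most of the pseudogenes copy only the first. In bases 1 to 240 the capitals mark the 3 GATC stretches, which begin at bases 13, 42 and 64.
RN7SK, bases 1 to 240: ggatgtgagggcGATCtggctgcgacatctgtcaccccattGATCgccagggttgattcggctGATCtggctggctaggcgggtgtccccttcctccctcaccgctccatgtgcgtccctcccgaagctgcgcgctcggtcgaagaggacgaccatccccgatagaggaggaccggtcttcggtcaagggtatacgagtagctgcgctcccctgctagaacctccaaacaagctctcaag
RN7SK, bases 241 to 331: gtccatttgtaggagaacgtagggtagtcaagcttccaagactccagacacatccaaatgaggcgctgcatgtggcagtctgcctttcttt

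Each of the 74 pseudogenes was aligned to RN7SK, and 2 forms stood apart. In 63 pseudogenes the likeness stopped before base 320 of RN7SK (truncated form), and in 11 it went on to base 320 or beyond (3′-reaching form). Of the 74 alignments, 59 ended between bases 231 and 248 and 68 began within bases 1 to 4, so the usual copy held the 5′ part and missed the 3′ end. Among all 288 pseudogenes, members or not, 269 were truncated and 19 were 3′-reaching. RN7SKP203 and RN7SKP255, the pseudogenes with the highest counts, were nearly unchanged copies of the 5′ part, and identity among the top 10 ran from 89.3% to 98.3%. The first 110 bases are shown for the 2 truncated and the 2 3′-reaching pseudogenes with the most counts, with capitals at substitutions relative to RN7SK. RN7SKP203 and RN7SKP255 each had 1 substitution there, RN7SKP187 had 6 and RN7SKP185 had 12. The alignment of RN7SKP187 began at base 3.
RN7SKP203, chr2:76445079-76445410, minus strand: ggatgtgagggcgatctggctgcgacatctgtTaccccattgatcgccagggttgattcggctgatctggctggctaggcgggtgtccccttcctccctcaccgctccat
RN7SKP255, chr14:89712511-89712823, plus strand: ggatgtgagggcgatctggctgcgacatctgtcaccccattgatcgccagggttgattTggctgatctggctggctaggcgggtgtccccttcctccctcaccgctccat
RN7SKP185, chr20:37975156-37975481, minus strand: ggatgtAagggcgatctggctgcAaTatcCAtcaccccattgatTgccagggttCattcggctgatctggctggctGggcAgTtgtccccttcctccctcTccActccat
RN7SKP187, chr7:112288623-112288952, plus strand: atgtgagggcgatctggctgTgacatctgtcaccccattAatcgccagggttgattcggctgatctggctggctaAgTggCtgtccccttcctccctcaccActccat

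The 3′ ends separate the forms. The stretch opposite bases 241 to 331 is shown for the 4 3′-reaching pseudogenes with the most counts, again with capitals at differences from RN7SK, and inserted bases are also in capitals. Bases missing from a copy are not marked. RN7SKP185 holds 86 bases here, and its alignment ended at base 327 of RN7SK.
RN7SKP185, 3′ stretch: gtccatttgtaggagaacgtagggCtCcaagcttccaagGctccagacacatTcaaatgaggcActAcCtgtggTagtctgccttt
RN7SKP187, 3′ stretch: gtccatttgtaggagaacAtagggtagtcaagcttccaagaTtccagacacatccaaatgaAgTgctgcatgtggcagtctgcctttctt
RN7SKP160, chr1:173791548-173791887, plus strand, 3′ stretch: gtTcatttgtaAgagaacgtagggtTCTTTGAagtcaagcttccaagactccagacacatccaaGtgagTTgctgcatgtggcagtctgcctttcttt
RN7SKP227, chr3:36685040-36685369, plus strand, 3′ stretch: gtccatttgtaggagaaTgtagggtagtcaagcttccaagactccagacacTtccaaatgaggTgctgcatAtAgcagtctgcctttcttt
In the truncated RN7SKP203 and RN7SKP255, the bases that follow the aligned part showed no continued alignment to RN7SK.
RN7SKP203, bases 242 to 332: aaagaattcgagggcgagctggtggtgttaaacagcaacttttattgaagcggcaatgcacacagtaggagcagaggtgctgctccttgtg
RN7SKP255, bases 241 to 313: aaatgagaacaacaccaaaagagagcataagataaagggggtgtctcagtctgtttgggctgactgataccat

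The 74 pseudogenes lay on 20 chromosomes, 40 on the plus strand and 34 on the minus strand, and were 156 to 361 bases long (median 315). Identity to RN7SK over the aligned part ran from 76.4% to 98.3% with a median of 89.9%. By the GENCODE annotation, 21 lay within a gene on the same strand, 18 of them a protein-coding gene, 23 lay within a gene on the opposite strand only and 30 lay in no gene. Overlap with an exon of the same strand was found for 3, among them RN7SKP187 in ZNF277. Of the 3 GATC stretches of RN7SK, all 3 were kept at their aligned position in 21 pseudogenes, 2 in 35, 1 in 15 and none in 3. The letters GATC, which read alike on both strands, occurred in 71 of the 74 pseudogenes (95.95%), beside 548 of 599 other listed features of 250 to 361 bases (91.5%), so that presence of the letters alone did not mark the family.

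Because reads of at most 50 bases cannot always be placed on 1 copy, the sequence that the pseudogenes share with the gene was counted in windows of 20 bases. Of the 312 windows of RN7SK, 96.5% occurred without a change in at least 1 of the 288 pseudogenes, and all 11 windows found in no pseudogene began after base 240. Within bases 1 to 240 a window was held by a median of 11 pseudogenes and by at most 58, at base 215. After base 240 the median was 2 and the highest 7. Counts of RN7SK and counts of its copies can therefore not be fully told apart, least of all in the 5′ part. A read longer than 20 bases matches no more copies than such a window and may match fewer. Sharing along RN7SK was not counted by window at longer lengths. In the copies with the most counts, the longest stretch identical to RN7SK was 143 bases (RN7SKP203), 103 (RN7SKP255) and 128 (RN7SKP80). It was shorter than a full read in others, such as 41 bases in RN7SKP25 and 35 in RN7SKP187. A read of 50 bases within such a longer stretch matches RN7SK and the copy alike. How reads matching several loci were treated is not given in the sources used here.

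**Figure D1:**
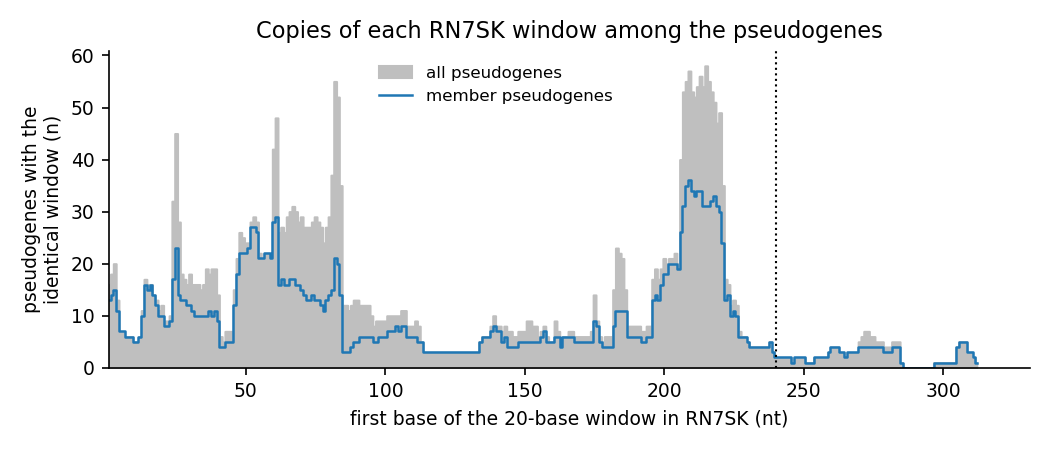
Number of 7SK pseudogenes (y axis) that hold each 20-base window of RN7SK without a change, by the first base of the window (x axis, nt); the grey area covers all 288 pseudogenes, the blue line the 74 members and the dotted line marks base 240. Windows held by more than 7 pseudogenes, up to 58, all begin before base 240, where other stretches are held by as few as 3.

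Counts of the pseudogenes followed the amount of RN7SK sequence they hold. The 5 pseudogenes with at least 100 of the 312 windows (RN7SKP203, RN7SKP255, RN7SKP80, RN7SKP9 and RN7SKP71) had 152 to 273 counts each. The 5 pseudogenes with 50 to 99 windows had a median of 92 counts, and the 66 with 20 to 49 windows had a median of 15.5, from 1 to 166. Of the 110 pseudogenes with 1 to 19 windows, 15 were members and 32 had 0 counts. None of the 102 pseudogenes without a shared window was a member, and 94 of them had 0 counts. Across the 288 pseudogenes, which share sequence and libraries and are not independent, the Spearman correlation between shared windows and summed counts was 0.872, and it was 0.738 to 0.850 in single libraries. The correlation was 0.688 for percent identity and 0.301 for length. Among the 74 members, a range cut by the rule itself, it was 0.673, 0.303 and 0.103 for the same 3 measures.

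**Figure D2:**
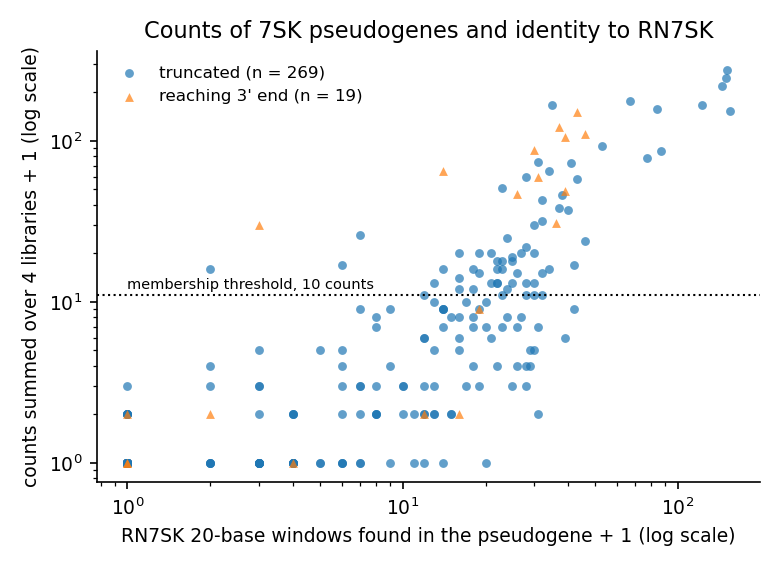
Counts summed over 4 libraries plus 1 (y axis, log scale) against the number of RN7SK windows of 20 bases held plus 1 (x axis, log scale) for 288 pseudogenes, 269 truncated (blue circles) and 19 reaching the 3′ end (orange triangles); the dotted line is the threshold of 10 counts. The 5 pseudogenes with at least 100 windows sit at 152 to 273 counts.

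The pseudogenes together drew more counts than the gene. RN7SK had 148 and 283 counts in the T4A libraries and 135 and 182 in the WT libraries, 748 in all. The 74 pseudogenes had 779 and 1542 counts in the T4A libraries and 582 and 949 in the WT libraries, 3852 in all or 5.15 times RN7SK. The top 5 pseudogenes held 28.1% of the pseudogene counts and the top 10 held 47.4%. By summed counts RN7SK ranked 644 among the features, and by counts per base 885. In CPM (counts relative to library totals scaled by TMM factors, per 1000000) divided by length in kilobases, RN7SK had a mean level of 28.1, below the 332.9 of RN7SL1, the RNA of the signal recognition particle, and above the 9.12 of RNU6-1, a U6 spliceosomal RNA made from the same type of promoter. Other genes with that promoter type stood higher, RNY3 at 592.1, RNY1 at 3496 and RNY4 above both. The U6 genes RNU6-2, RNU6-7, RNU6-8 and RNU6-9 stood at 7.4 to 10.1 each. The 9.12 is thus the level of 1 U6 gene and not of U6 RNA as a whole. Likewise, the 28.1 is what was counted at RN7SK and not the level of 7SK RNA as a whole. Reads shared with the copies may have been counted elsewhere or not at all, which also limits the 5.15 and the ranks. How fully RNAs of different length were captured in these small RNA libraries was not tested.

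The level of RN7SK hardly differed between libraries. Not divided by length, RN7SK stood at 9.35 and 8.96 CPM in the T4A libraries and at 9.25 and 9.67 in the WT libraries. The groups overlapped, with means of 9.16 ± 0.274 in T4A and 9.46 ± 0.294 in WT (SD, n = 2 each). The log2 fold change of T4A over WT was −0.05 with an SE of 0.32 and a 95% interval of −0.78 to 0.68 (edgeR quasi-likelihood test, adjusted p = 0.981 over 1480 features tested). The interval leaves room for a change of the gene in either direction, and the sign turned positive under upper quartile scaling and under library size alone, at 0.11 and 0.13, where the median of all features moved with it, to 0.13 and 0.14.

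**Figure D3:**
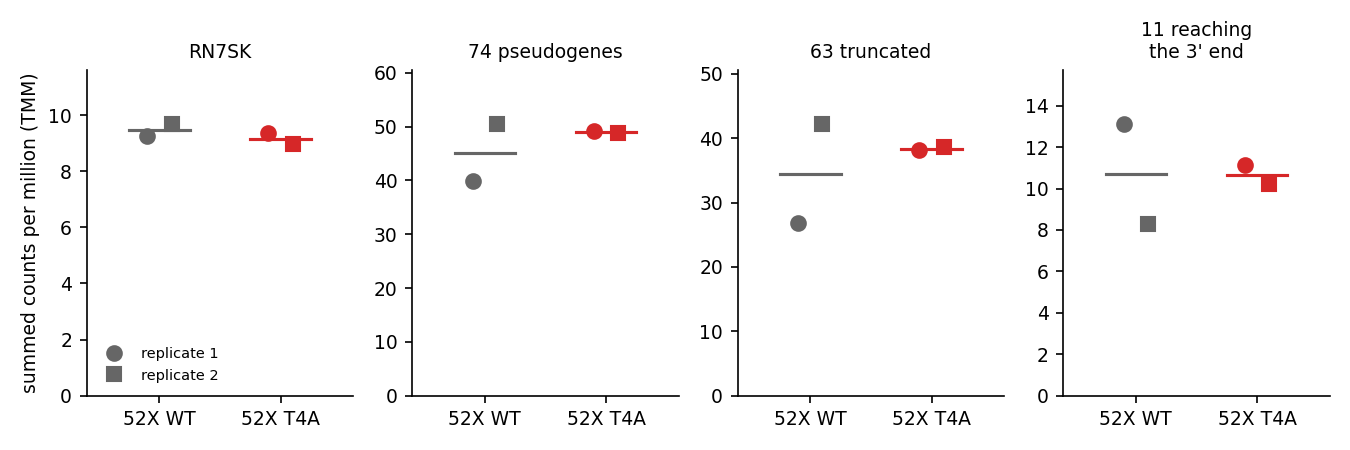
Summed CPM (y axes, each starting at 0) of RN7SK, the 74 pseudogenes, the 63 truncated ones and the 11 reaching the 3′ end, for 52X WT (grey) and 52X T4A (red); circles are replicate 1, squares replicate 2 and lines group means of n = 2. The WT replicates lie at 26.8 and 42.1 for the truncated form and, in the opposite order, at 13.1 and 8.29 for the 3′-reaching form.

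The summed level of the pseudogenes was 49.2 and 48.8 CPM in the T4A libraries and 39.9 and 50.4 in the WT libraries. The T4A values lay between the WT values, and the means of 49.03 ± 0.267 and 45.1 ± 7.44 (SD, n = 2 each) did not separate (exact permutation test, two-sided p = 1). With 2 libraries a group this test cannot give a p below 0.333. RN7SK made up 16.0% (95% Clopper-Pearson interval 13.7% to 18.5%) and 15.5% (13.9% to 17.3%) of the family counts in the T4A libraries. In the WT libraries it made up 18.8% (16.0% to 21.9%) and 16.1% (14% to 18.4%). Intervals of this kind cover counting error only. The log2 ratio of RN7SK to pseudogene counts, which needs no scaling, was −2.40 and −2.45 in T4A and −2.11 and −2.38 in WT. Both T4A values were lower, by a mean of −0.18 (exact permutation test, p = 0.333, the lowest possible). WT replicate 1 carried most of this difference, which was −0.04 without it and −0.31 without WT replicate 2. The family as a whole held 0.00573% and 0.00667% of all counts in the T4A libraries and 0.00443% and 0.00590% in the WT libraries, a difference of 0.00103 percentage points with overlapping groups (exact permutation test, p = 0.667).

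The forms of pseudogene did not move together between the WT replicates. The comparison by form was not planned and was added after seeing the data. The truncated form summed to 38.1 and 38.6 CPM in T4A and to 26.8 and 42.1 in WT. The 3′-reaching form summed to 11.1 and 10.2 CPM in T4A and to 13.1 and 8.29 in WT. So WT replicate 1 had the least of the truncated form and the most of the 3′-reaching form of all 4 libraries, and WT replicate 2 the reverse. As a share of the pseudogene counts, which needs no scaling, the 3′-reaching form made up 22.6% (95% Clopper-Pearson interval 19.7% to 25.7%) and 20.9% (18.9% to 23.1%) in T4A. In WT the share was 32.8% (29.0% to 36.8%) in replicate 1 and 16.4% (14.1% to 18.9%) in replicate 2. The WT intervals did not meet, and both T4A values lay between them, so the groups overlapped (exact permutation test, p = 1). The same counts were then taken feature by feature among the 28 pseudogenes with enough counts to be tested, which is no separate evidence. All 19 truncated ones were lower in WT replicate 1 than in WT replicate 2, by log2 ratios of −2.05 to −0.12 (median −0.63). Of the 9 3′-reaching ones, 8 were higher in WT replicate 1, with a median log2 ratio of 0.78, and RN7SKP160 was level at −0.01. RN7SK itself, which holds both stretches, differed by −0.06 between these libraries. Between the T4A replicates no such split was seen, with replicate 1 above replicate 2 for 10 of 19 truncated and 5 of 9 3′-reaching pseudogenes and medians of 0.23 and 0.10. Other features also differed between the WT replicates, in both orders, such as RNU5B-1 at 34.5 and 11.95 CPM and RNU7-1 at 16.6 and 25.55. How many of all features tested did so was not counted, so the split is not shown to be particular to 7SK copies. The 2 WT libraries have the same labels, and copies of 1 form share sequence and possibly reads. Whether the form or something that goes with it differed between these libraries was not tested.

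**Figure D4:**
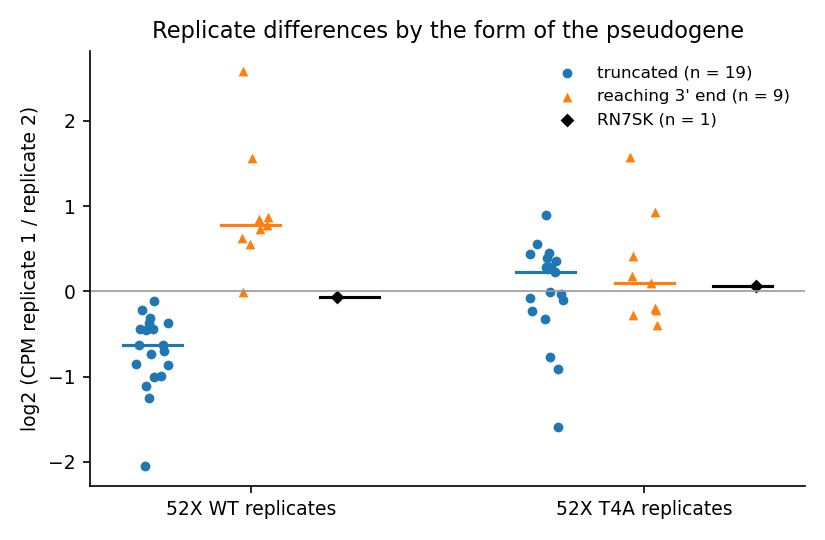
Log2 ratio of CPM in replicate 1 over replicate 2 (y axis) within 52X WT (left) and 52X T4A (right) for 19 truncated pseudogenes (blue circles), 9 reaching the 3′ end (orange triangles) and RN7SK (black diamond); points are single features, spread sideways for view, and lines are medians. In WT the truncated ones all lie below 0, with a median of −0.63, and the 3′-reaching ones have a median of 0.78.

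None of the 30 members that passed the filter on low counts (RN7SK under both identifiers and 28 pseudogenes) was called different between T4A and WT. A call required an adjusted p below 0.05 and a fold change over 1.5, and 2 of 1480 features met it (0.135%). At an unadjusted p below 0.05 the members numbered 0 as well, where 10.3% of all features tested passed, and DESeq2 gave 0 by both measures. The smallest adjusted p of a member in edgeR was 0.636. The tested pseudogenes had summed counts of 42 or more. The other 46 had at most 37, with 0 to 14 counts in a library. Fitted without the filter, 1 of all 76 members had an unadjusted p below 0.05 and 0 were called, with a smallest adjusted p of 0.0923 in edgeR (RN7SKP249).

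The most abundant pseudogene, RN7SKP203, which lies in no annotated gene, had 52 and 111 counts in T4A and 40 and 70 in WT, a log2 fold change of 0.07 ± 0.35 (SE). RN7SKP255 had 63 and 96 counts in T4A and 26 and 61 in WT, 0.46 ± 0.40 (adjusted p = 0.668 in edgeR). RN7SKP80, within the noncoding RRP7BP gene, had 36 and 84 against 36 and 63, −0.23 ± 0.37. In all 3 the CPM values of the groups overlapped. Of the other 7 in the top 10, RN7SKP230, RN7SKP25, RN7SKP9, RN7SKP79 and RN7SKP71 were truncated and had log2 fold changes of 0.06, 0.34, 0.06, 0.12 and −0.04. RN7SKP25 and RN7SKP9 lie on the sense strand of the protein-coding genes PLS1 and UBAC2. The 3′-reaching RN7SKP185 had 30 and 53 counts in T4A and 36 and 30 in WT (−0.18 ± 0.40), and RN7SKP187 had 22 and 51 against 27 and 21 (0.05 ± 0.43). Each of these changes was smaller than its SE, except that of RN7SKP255.

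The ends of the range rested on few counts. RN7SKP204 had 17 and 23 counts in T4A and 3 and 16 in WT, the highest log2 fold change at 0.67 ± 0.63. RN7SKP90 had 21 and 31 against 7 and 18 (0.63 ± 0.51), and RN7SKP76 had 21 and 22 against 12 and 9 (0.60 ± 0.55). Adjusted p-values in edgeR were 0.692, 0.636 and 0.679, and only RN7SKP90 had both T4A libraries above both WT libraries in CPM. At the other end, RN7SKP193 had 14 and 23 counts in T4A and 15 and 21 in WT (−0.43 ± 0.45, adjusted p = 0.729), with both T4A libraries below. RN7SKP228 had 8 and 30 against 9 and 25 (−0.38 ± 0.55), and RN7SKP48 had 15 and 10 against 16 and 7 (−0.29 ± 0.70), both with overlapping groups.

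Across the 28 tested pseudogenes the log2 fold changes ran from −0.43 to 0.67 with SEs of 0.35 to 0.72. Their median was 0.07, beside −0.05 for all features tested. Above 0 lay 20 of 28 (71.4%), beside 46.1% of all features tested. This is a description of copies that passed the filter and share sequence, and it changed with WT replicate 1. The median less that of all features was 0.11 with all libraries, −0.04 without WT replicate 1 and 0.37 without WT replicate 2. In 3 pseudogenes (RN7SKP90, RN7SKP37 and RN7SKP163) both T4A libraries lay above both WT libraries, as in 18.9% of all features tested. In 1, RN7SKP193, they lay below, as in 21.2%, and in the other 24 the groups overlapped.

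**Figure D5:**
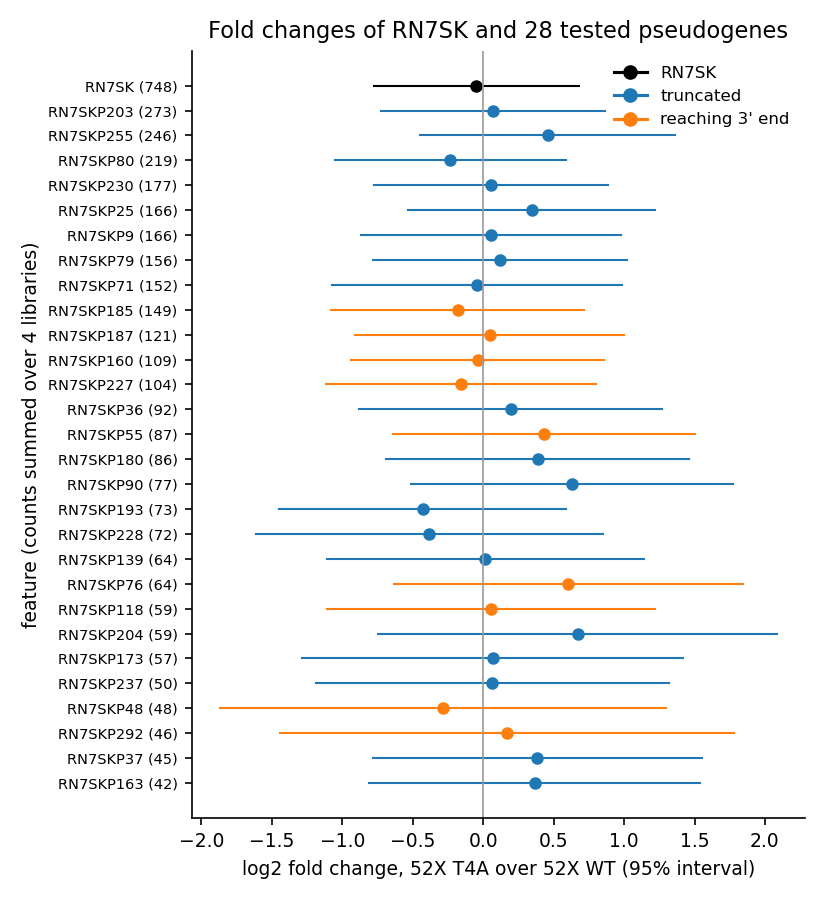
Log2 fold change of 52X T4A over 52X WT (x axis) with 95% interval (lines) for RN7SK and the 28 tested pseudogenes, ordered by counts summed over 4 libraries (in parentheses); black is RN7SK, blue truncated and orange 3′-reaching. All intervals include 0, and the values run from −0.43 to 0.67.

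A nearly identical pair of members had few counts. RN7SKP63 and RN7SKP221 differ by 2 mismatches over 301 bases (99.3% identity) and had 2, 12, 2 and 1 counts against 4, 2, 2 and 7 in T4A replicates 1 and 2 and WT replicates 1 and 2, totals of 17 and 15. RN7SKP63 overlaps an exon on its strand and RN7SKP221 does not. RN7SKP249 had 1 and 14 counts in T4A and 0 in both WT libraries, and did not pass the filter. Of its counts 93.3% came from T4A replicate 2, the deepest library. RN7SKP249 and this pair lie outside the rule for named features and were chosen after their values were seen.

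RN7SK belongs to a group of Pol III genes whose promoters lie wholly upstream of the gene and share their proximal element with the Pol II genes for spliceosomal RNAs. Of 12 other genes of this Pol III type, 8 were tested and 0 were called, 1 at an unadjusted p below 0.05 in edgeR and 0 called by DESeq2, and the log2 fold changes had a median of −0.13, with 2 above 0. Among them RNY1, a Y RNA bound by the Ro protein, had 5614 and 7402 counts in T4A and 9155 and 6850 in WT (−0.75 ± 0.32, adjusted p = 0.460). RNY4, another Y RNA, had −0.64 ± 0.31 (adjusted p = 0.467). Without a filter it was called (adjusted p = 0.00152 in edgeR), 1 of 29 calls among 3803 features tested. Its log2 fold change was −1.07 without T4A replicate 1, which leaves 1 T4A library. RNY3 had −0.11 ± 0.31, and RNU6-1, with 19 and 21 counts against 15 and 19, −0.18 ± 0.49. RNU6ATAC, of the minor spliceosome, had 6 and 11 counts in T4A and 4 in each WT library and was not tested. Of 18 Pol II genes with the same proximal element, 16 were tested and 0 called, 1 at an unadjusted p below 0.05, with a median of −0.13 and 3 above 0. Of 6 Pol III genes with other promoters, 5 were tested and 0 called, 1 at an unadjusted p below 0.05, with a median of −0.36 and none above 0. Over all features tested, 10.3% had an unadjusted p below 0.05 and 46.1% lay above 0. Without WT replicate 2, which leaves 1 WT library, RNY1 of the Pol III type had a log2 fold change of −1.09. Of the Pol II genes, RNU5B-1 had −1.57, RNU5F-1 −1.32, RNU4-2 −1.25, RNU5A-1 −1.055 and RNU2-2 0.99. These genes are named because they passed in that fit, where features outside the lists also passed far more often than with all libraries. RN7SL1, of the Pol III genes with other promoters, had 1685 and 2770 counts in T4A and 1577 and 1806 in WT (−0.07 ± 0.27). RN7SK, at −0.05, thus lay within the range of its own list, −0.75 to 0.50.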

How the data were processed

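Small RNA libraries of 2 groups of 2 samples were analysed from the raw counts per feature that the authors deposited, with no normalization. The submitters' processing notes name cutadapt 4.6, Bowtie2 2.3.5.1, featureCounts 1.5.0 and hg38. The treatment of reads with several matches and the strand setting are not given in the sources used here, and both affect copies of 1 gene. Members and lists were chosen with earlier results of these data known. Features were named by Ensembl identifier through GENCODE v44lift37, whose transcripts gave all sequences, and all 76 members matched. Transcript and listed length were equal for 75. Alignment to RN7SK used Biopython 1.88 (local, match 2, mismatch −3, gap −5 and −2). Counts were tested with edgeR 4.0.16 (R 4.3.3): TMM, filterByExpr with a minimum count of 10, quasi-likelihood F test and Benjamini-Hochberg adjustment over 1480 features. The fit was tested on simulated data with large changes in features of higher counts, which does not show how small changes at low counts are found. A feature was called at an adjusted p below 0.05 and a fold change above 1.5. Exact permutation tests over libraries and Clopper-Pearson intervals (95%) used SciPy 1.17.1. Named were RN7SK, the 10 pseudogenes with the most counts, the 3 highest and 3 lowest fold changes, any member called and 8 comparison genes, of which RNY5 and RN7SL2 were not analysed here, nor were RMRP, RPPH1, RNU2-1 and RNU11 of the lists. Alternatives were other scalings and filters, DESeq2 1.42.0, a replicate block and leaving out each library. Library totals were 16180790 to 27370127 counts. The p-values measure the spread between these samples.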

Additional observations from a re-analysis of the deposited data

How the results depend on the processing

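Of 69 alternative values, 61 were classed as the same. For counts of calls this meant an equal count, and for the RN7SK log2 fold change the same sign. For the other values it meant a move smaller than the spread between replicates. With 2 libraries a group, leaving out a library cannot move the ratio or the family share by more than that spread. The replicate block leaves both differences unchanged, and counting both identifiers of RN7SK leaves the ratio difference unchanged. Those values were classed as the same by construction and are no evidence of stability. Of the 61, 1 changed sign, the pseudogene median without WT replicate 1. No member was called under any of them, including no filter, DESeq2 and leaving out each library. The log2 fold change of RN7SK turned to 0.11 with upper quartile factors and to 0.13 with library size alone, where the median of all features moved from −0.05 to 0.13 and 0.14, and leaving out each library gave −0.17 to −0.00077. The median of the tested pseudogenes was 0.25 with library size alone and −0.092 to 0.32 on leaving out each library, negative only without WT replicate 1 and highest without WT replicate 2. Without a filter all 76 members were tested, the smallest adjusted p was 0.0923 (RN7SKP249, edgeR), and the pseudogene median was 0.10. In the lists of Pol III and related genes, 0 calls became 1 without a filter and 1 with the replicate block, RNY4 in both (adjusted p = 0.00152 and 0.0372 in edgeR). Leaving out each library gave 0 to 6: RNY4 without T4A replicate 1, and RNU5F-1, RNY1, RNU2-2, RNU4-2, RNU5A-1 and RNU5B-1 without WT replicate 2. Replicate numbers are not stated to pair samples. Deviations of same-numbered libraries correlated at 0.0985, and the replicate block gave −0.05 for RN7SK and 0.08 for the pseudogene median. Calls over all features were 2, 9 with library size alone, 29 without a filter, 30 with DESeq2, 18 with the replicate block, 6 and 4 without T4A replicates 1 and 2, and 35 and 218 without WT replicates 1 and 2. A lone remaining library was assumed to vary like the other group. The ratio of RN7SK to pseudogenes differed by −0.31 to −0.04 on leaving out each library, and the family share by 0.000295 to 0.00177 percentage points. Added after seeing the data, the ratio difference was −0.19 over all pseudogenes, −0.16 with RN7SKP175, −0.08 for the 3′-reaching form and −0.24 for the truncated form. Limits are the depth, with at most 37 counts in all for 46 of 74 pseudogenes, the unknown placing of reads shared by copies, and 2 libraries a group.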
